A study of Mus musculus with 24 samples.

Results

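The transcripts described here are 10 genes of iron and heme handling, Hamp, Slc40a1, Slc11a1, Slc39a14, Tfrc, Fth1, Ftl1, Hmox1, Blvrb and Cp, found by matching these symbols to the Ensembl identifiers of a count table with 41388 mouse genes. All 10 were found, and all 10 passed the filter on low counts at each time point. They were measured by RNA sequencing in 24 hearts of wild-type male Balb/c mice (substrain BALB/cAnNCrl) with experimental autoimmune myocarditis (EAM) or without it. EAM mice received 100 µg of a myosin heavy chain alpha peptide in supplemented complete Freund's adjuvant on days 0 and 7, with pertussis toxin on day 0. Control mice received PBS in place of the peptide with the same adjuvant and toxin, so both groups carry the adjuvant response and neither stands for an untreated heart. Mice were 8 to 10 weeks old when first immunized, and a frozen portion of each heart was sequenced at day 10 (D10), day 15 (D15) or day 21 (D21), with 4 EAM and 4 control hearts at each day. Hearts for sequencing had been picked with an eye to inflammation, since myocarditis may not develop in every mouse of this model.

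Iron enters cells bound to transferrin through the transferrin receptor, or unbound through transporters such as ZIP14, and is stored inside the shell of ferritin, which is built of heavy and light subunits. Ferroportin is the exporter, and hepcidin, a peptide hormone made mainly by the liver and at a lower level by the heart, binds ferroportin and has it degraded. Macrophages recover iron from heme with heme oxygenase 1, and in inflammation hepcidin and the storage and scavenging proteins tend to hold iron inside cells and away from microbes. Much of this system is set after transcription: iron regulatory proteins bind a short hairpin, the iron-responsive element, which blocks translation when it lies in the 5′ UTR and protects the messenger RNA when it lies in the 3′ UTR. Transcript counts therefore do not read the protein of these genes.

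The hairpins are shown because they divide the 10 genes into those under this control and those without it. A search of annotated UTRs (GENCODE M21, GRCm38) for an unpaired C, 5 bases, the loop CAGTGN and 5 bases that pair with the first 5 found the motif in 0.151% of genes with a 5′ UTR and in 0.614% of genes with a 3′ UTR. Of the 10 genes, 4 held it. Capitals mark the loop, each run is written 5′ to 3′ on the strand of the gene, and the first 3 lie in 5′ UTRs and the last 4 in the 3′ UTR of Tfrc.
Fth1, chr19:9982732-9982760, plus strand: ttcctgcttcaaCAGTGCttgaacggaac
Ftl1, chr7:45459779-45459807, minus strand: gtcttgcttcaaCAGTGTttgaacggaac
Slc40a1, chr1:45925465-45925493, minus strand: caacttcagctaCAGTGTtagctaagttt
Tfrc, chr16:32631219-32631247, plus strand: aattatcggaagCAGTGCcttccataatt
Tfrc, chr16:32631598-32631626, plus strand: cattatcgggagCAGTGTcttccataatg
Tfrc, chr16:32631663-32631691, plus strand: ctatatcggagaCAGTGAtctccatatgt
Tfrc, chr16:32631710-32631738, plus strand: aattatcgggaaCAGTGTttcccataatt

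Hamp has no such hairpin in its UTRs, and its known control lies in its promoter, where bone morphogenetic protein (BMP) signalling and interleukin-6 acting through STAT3 are the textbook inducers. The 150 bases before the Hamp start site (RefSeq, GRCm38.p6, chr7:30944030-30944179, minus strand) are shown because both kinds of motif occur in them. Capitals mark GGCGCC, the core of BMP-responsive elements, at positions -109 to -104 from the start site, and TTCNNNGAA, the STAT site, at positions -97 to -89.
Hamp promoter: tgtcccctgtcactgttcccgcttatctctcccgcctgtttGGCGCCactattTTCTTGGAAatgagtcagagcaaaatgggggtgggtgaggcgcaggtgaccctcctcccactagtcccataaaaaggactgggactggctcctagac
Searched on both strands of the 250 bases before each start site, GGCGCC occurred in 9.59% of 32851 promoters, TTCNNNGAA in 7.02% and both in 0.368%; the 2 motifs do not overlap each other in Hamp.

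Libraries held 15814863 to 24980864 counts. Levels are given as CPM, the counts of a gene per 1000000 counts of the library, scaled by the trimmed mean of M values (TMM), always in the order of hearts 1 to 4 of a group, and a gene was called induced or repressed at a false discovery rate (FDR) under 0.01 with at least a 2-fold change between EAM and control. The defining cardiomyocyte markers were detected in all groups, with summed levels of 29248 to 36535 CPM in control hearts and 7781 to 19960 CPM in D15 EAM hearts. Of 10 monocyte and macrophage markers, 0 were called at D10, all 10 were induced at D15 and 6 were induced at D21. The 4 D21 EAM libraries carry another library code than the other 20, so this code and EAM cannot be told apart at D21. These are whole pieces of heart, in which fewer cells of a type and less RNA per cell cannot be told apart.

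Libraries also differed in atrial transcripts, and this divides them before any comparison of Hamp. The summed level of Myl7, Myl4, Sln, Nppa and Bmp10, genes known from atrial muscle and picked here after their values were seen, was 209 to 507 CPM in the D10 control hearts, 240.4 CPM in D15 control heart 4 and 55.9 to 181 CPM in the 4 D21 EAM hearts. It was 567 to 2790.4 CPM in the other 15 hearts. Because the 5 were picked for these values, no test of them is given.

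In control hearts the ferritin transcripts were by far the most abundant of the 10. Per kilobase of messenger RNA, Fth1 stood at 883 ± 77.7 CPM (SD, n = 12 control hearts) and Ftl1 at 348 ± 51.5 CPM, and each was above the next gene in every control heart. Tfrc (37.7 ± 14.4), Cp (30.1 ± 6.87), Slc39a14 (24.4 ± 5.11), Hamp (22.4 ± 15.9), Hmox1 (11.7 ± 3.98), Slc40a1 (11.4 ± 1.62) and Blvrb (11 ± 0.85 CPM per kilobase) followed, and none of these was above its lower neighbour in all 12 hearts except Blvrb, which stood above Slc11a1 (3.26 ± 0.924) in each. The spread among control hearts was widest for Hamp, whose highest heart was 11.9 times its lowest, and for Tfrc, with 3.83 times. Blvrb and Fth1 were the steadiest, with 1.28 and 1.38 times. No gene of the 10 was called between control hearts of D15 and D10, where 0.0919% of all genes tested were called, or between those of D21 and D10 (0.214%), where the likelihood ratio test and DESeq2 called Hamp. These shares stand for 15 and 35 genes, which became 0 to 22 and 0 to 64 with 1 heart left out.

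**Figure D1:**
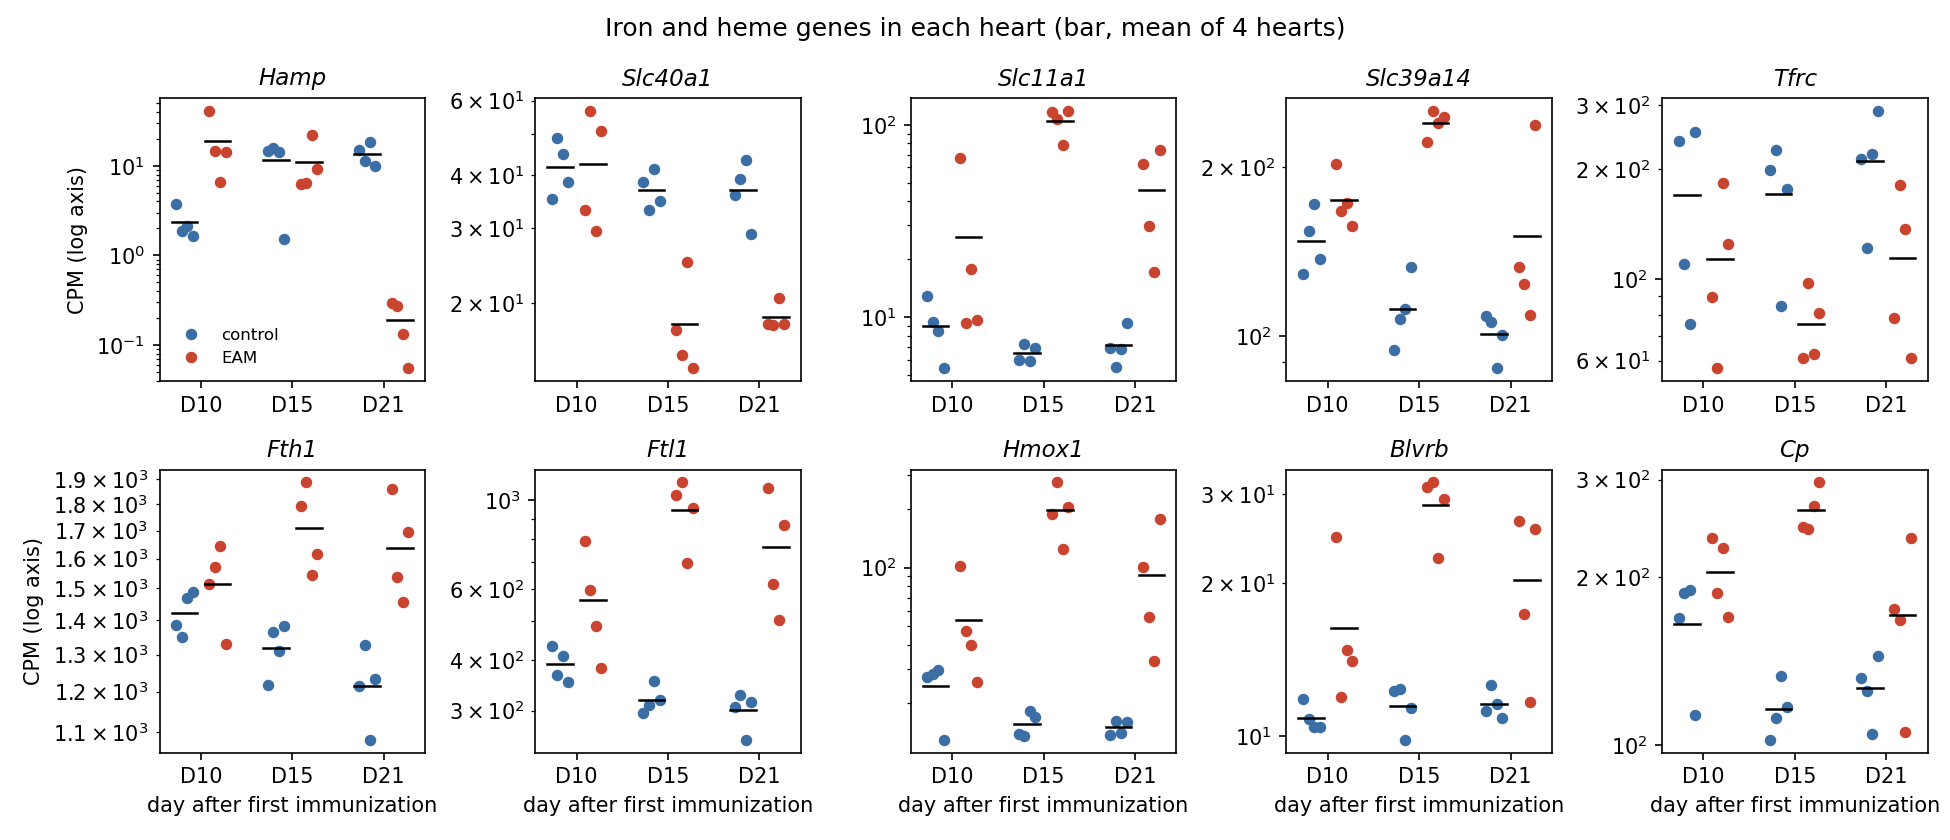
Level of each of the 10 genes in CPM on a log axis (vertical) by day after first immunization (horizontal), with 1 point for each of 4 control (blue) and 4 EAM (red) hearts and a bar at the group mean. Slc11a1, Ftl1 and Hmox1 lie above all controls at D15 and D21, Slc40a1 lies below them, and Hamp is at 0.0552 to 0.296 CPM in the 4 D21 EAM hearts.

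The comparison of EAM with control at each day asks how the iron and heme genes stand before, at and after the rise of cardiac inflammation. At D10 edgeR's quasi-likelihood test called none of the 10, as was true of all genes tested (percent called 0.0); the likelihood ratio test and DESeq2 each called 1, Hamp, and limma-voom 0. Over all genes the likelihood ratio test called 45 higher and 2 lower at that day, DESeq2 48 and 4, and limma-voom 0. At an unadjusted p under 0.05, 5 of the 10 were higher in EAM and 0 lower, against 9.71% and 5.54% of all genes tested. These shares, 1459 and 833 genes, moved with single hearts. They became 621 and 412 genes without control heart 4, and 2042 and 1684 without EAM heart 4. At D15, 6 were induced (Slc11a1, Slc39a14, Ftl1, Hmox1, Blvrb and Cp) and 2 were repressed (Slc40a1 and Tfrc), beside 18.1% of all genes induced and 12.9% repressed. At D21, 3 were induced (Slc11a1, Ftl1 and Hmox1) and Hamp was repressed, beside 4.13% and 1.16% of all genes. In the same order of days, the median log2 fold change of the 10 was 0.41, 1.18 and 0.54, beside medians of -0.01, 0.02 and -0.01 over all genes tested.

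Groups that did not overlap were common at the later days. At D15, 7 of the 10 were higher and 1 lower in every EAM heart than in every control heart, against 34.6% and 35.9% of all genes. At D21 the numbers were 5 higher and 2 lower, against 17.8% and 18.7% of all genes. The D21 calls depended on single hearts: without EAM heart 3, 6 of the 10 were called and 2006 genes in all, without EAM heart 1 or 2 only Hamp was called, and without any 1 of the 4 control hearts 0 of the 10 were. Without EAM heart 4, 3 of the 10 were called, with Ftl1 lost, and 434 genes in all. The whole table lost most of its calls in the remaining fits, with 14 and 40 genes called without EAM heart 1 or 2, and 0, 0, 0 and 9 without control hearts 1 to 4, against 807 with all hearts.

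**Figure D2:**
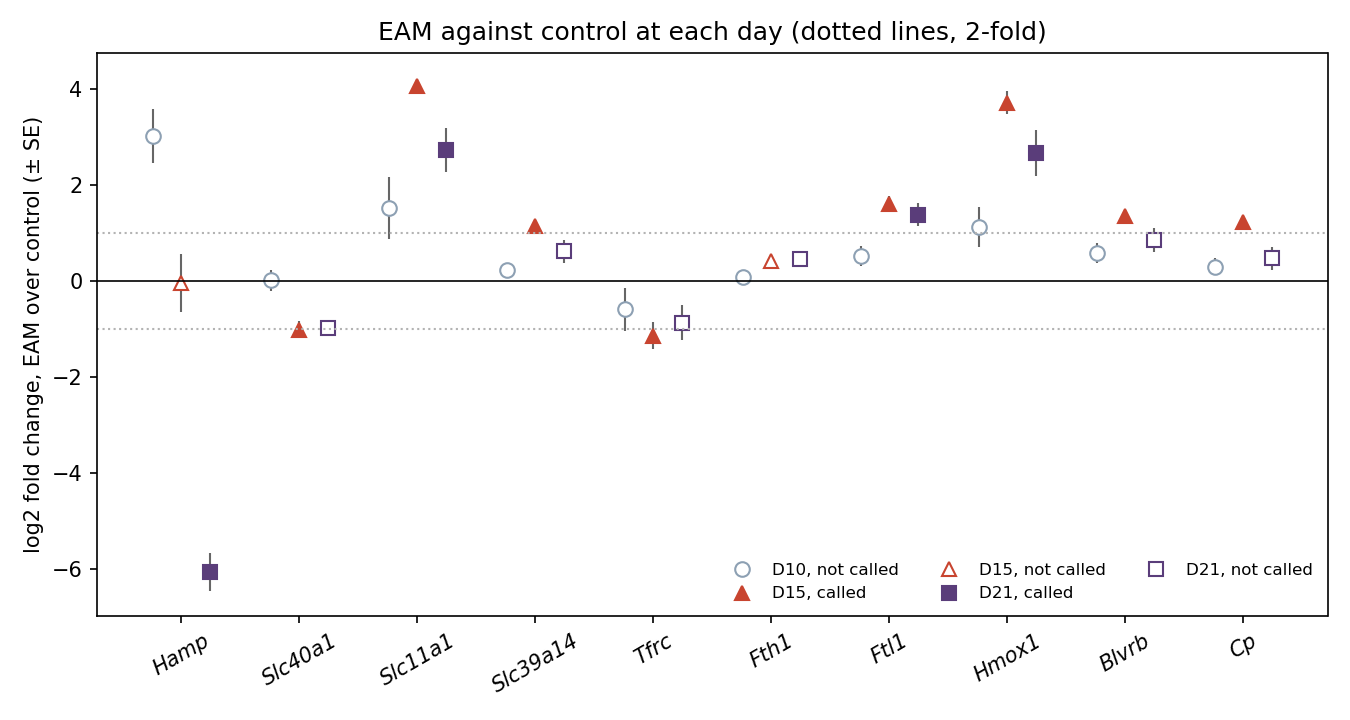
Log2 fold change of EAM over control (vertical) with its standard error for each gene (horizontal) at D10 (circles), D15 (triangles) and D21 (squares), with filled symbols for called changes and dotted lines at 2-fold. Hamp moves from 3.01 at D10 to -0.05 at D15 and -6.06 at D21, and Slc11a1 and Hmox1 peak at D15 with 4.06 and 3.71.

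Hamp encodes hepcidin (chromosome 7, 30942368 to 30944032, minus strand). At D10 it read 41.1, 14.6, 6.52 and 14.2 CPM in EAM hearts against 3.71, 1.90, 2.13 and 1.65 CPM in controls. Every EAM heart was above every control heart, the fitted log2 fold change was 3.01 ± 0.56 (SE), and the change was not called, with an adjusted p of 0.302 in edgeR's quasi-likelihood test. The edgeR likelihood ratio test and DESeq2 did call it, with adjusted p of 8.84e-05 and 4.88e-06, and limma-voom did not (0.392). With 1 heart left out the log2 fold change ran from 2.31, without EAM heart 1, to 3.32, without EAM heart 3, and against all 12 control hearts it was 1.08 with an adjusted p of 0.182.

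At D15 the groups overlapped for Hamp, with 6.29, 6.45, 22.2 and 9.11 CPM in EAM hearts against 14.7, 15.9, 14.2 and 1.53 CPM in controls. Control heart 4, the only D15 control with low atrial transcripts, was also the only one with low Hamp. The log2 fold change was -0.05 ± 0.61 (adjusted p 0.949) with this heart and -0.40 ± 0.42 (adjusted p 0.408) without it. Over all fits with 1 heart left out it ran from -0.60, without EAM heart 3, to 0.17, without EAM heart 1, and was never called.

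At D21 Hamp was nearly absent from EAM hearts. It counted 6, 5, 2 and 1 reads there (0.296, 0.273, 0.134 and 0.0552 CPM) against 294, 233, 418 and 192 reads in control hearts (15.0, 11.2, 18.3 and 9.84 CPM). The summed counts, 14 against 1137, gave a level 68.5 times lower in EAM, with an exact 95% interval of 40.6 to 126 that covers counting error only. The fitted log2 fold change was -6.06 ± 0.39 with an adjusted p of 4.92e-04, and Hamp passed the filter on low counts at D21 through its control hearts alone, so it had to differ to be tested at all, and it dropped out of the test whenever 1 control was left out.

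The Hamp level went along with the atrial transcripts of the same heart. Among the 12 control hearts, the 5 with Hamp under 5 CPM (1.53 to 3.71 CPM) were the 5 lowest in summed atrial transcripts (209 to 507 CPM), and the other 7 had 9.84 to 18.3 CPM of Hamp with 1771 to 2790.4 CPM of atrial transcripts. The atrial genes were picked after their values were seen, and the cut lies on Hamp itself. This match therefore describes these hearts and is not a test. Hamp counts per 1000 counts of the 5 atrial genes were 4.01 to 10.2 in the control hearts. They were 6.91 to 24 in D10 EAM, 6.56 to 12.5 in D15 EAM and 0.31 to 4.88 in D21 EAM hearts, where the atrial counts that remained were mostly Nppa. The atrial gene taken as the base changed this picture at both later days. Per 1000 counts of Myl7, an atrial myosin light chain, Hamp was at 462, 455, 12.4 and 111 in the D21 EAM hearts against 18.4 to 35.8 in D21 controls, and at 39.0 to 96.1 in D15 EAM hearts against 23.9 to 37.0 in D15 controls. Per 1000 counts of Myl4, another of these light chains, the D21 EAM hearts had 63.2, 78.1, 6.94 and 14.7 against 12.5 to 22.5 in controls. The D21 EAM values rest on 1 to 6 Hamp reads, so they give no direction for Hamp beyond its atrial content.

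An atrial score, the mean log2(CPM + 1) of the 5 genes, was entered as a covariate in 1 fit of all 24 hearts after the data were seen. In it, the log2 fold change of Hamp was 0.62 ± 0.47 at D10 (adjusted p 0.473), 0.40 ± 0.33 at D15 (adjusted p 0.28) and -0.83 ± 0.89 at D21 (adjusted p 0.892). Without the score, the same fit gave 3.02, -0.08 and -6.08. The score did not overlap between EAM and control at D10 (higher in EAM) or at D21 (lower), and no gene of the whole table was called in this fit at either day, so EAM and atrial content cannot be told apart there. At D15, where the score overlapped, 7 of the 10 were called, beside 2842 higher and 2288 lower of 16318 genes in all. In summed atrial CPM that overlap rested on D15 control heart 4 alone, at 240.4 CPM. Control hearts 1 to 3 stood at 1870, 2488 and 2195 CPM, above the EAM hearts at 567 to 1777 CPM.

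**Figure D3:**
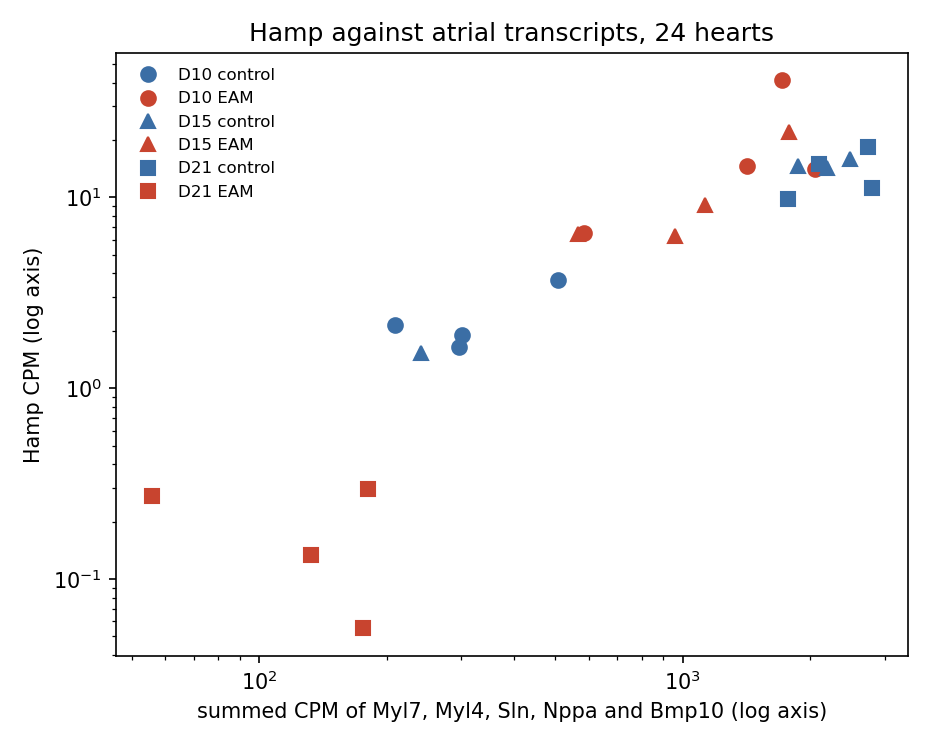
Hamp level (vertical, CPM, log axis) against the summed CPM of 5 atrial transcripts (horizontal, log axis) in 24 hearts, with color for EAM (red) or control (blue) and shape for the day. The D10 controls and D15 control heart 4 lie at the lower left of the other controls, and the 4 D21 EAM hearts lie lowest on both axes.

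Of 8 markers of liver, the main source of hepcidin, 7 averaged 0.0233 to 0.355 CPM over all 24 hearts, among them the albumin gene at 0.0726 CPM. The eighth, Ahsg, averaged 14.5 CPM, and it was the only one that could be tested and was not called at any day. The summed level of the 8, nearly all of it Ahsg, was 20.6 to 33.1 CPM in D10 EAM hearts against 10.2 to 14.7 CPM in controls, and 3.20 to 9.54 CPM in D21 EAM hearts against 13.4 to 19.1 CPM.

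Slc40a1 encodes ferroportin, the cellular iron exporter on which hepcidin acts (chromosome 1, 45908068 to 45926523, minus strand). At D10 the groups were interleaved, with 33.1, 56.7, 29.5 and 50.8 CPM in EAM hearts against 35.1, 48.8, 44.9 and 38.5 CPM in controls. At D15 it read 17.2, 15.1, 25.0 and 14.0 CPM in EAM against 38.6, 33.1, 41.3 and 34.9 CPM in control hearts, and at D21 17.9, 17.8, 20.5 and 17.9 CPM against 36.0, 39.1, 43.5 and 29.1 CPM. All EAM hearts were below all controls at both later days. The log2 fold change was -1.02 ± 0.17 at D15 (adjusted p 4.62e-04, repressed) and -0.98 ± 0.13 at D21 (adjusted p 0.00473), where it fell just short of 2-fold and so was not called. The D15 change is as close to the 2-fold line: scaling by total counts moved it to -0.87, and leaving out 1 heart took it under 2-fold in 5 of 8 fits, while the adjusted p stayed at or below 0.00255 in all 8.

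Cp encodes ceruloplasmin, a copper ferroxidase that oxidizes exported iron for loading onto transferrin and is also an acute-phase protein (chromosome 3, 19957054 to 20009145, plus strand). It was the other export gene of the 10, and it moved opposite to Slc40a1 at D15. It read 246, 244, 269 and 296 CPM in D15 EAM hearts and 102, 112, 133 and 117 CPM in controls, with no overlap and a log2 fold change of 1.23 ± 0.10 (adjusted p 5.99e-06, induced). At D21 the groups overlapped, since EAM heart 3 (105 CPM) stood among the controls (104 to 144 CPM), and the value was 0.47 ± 0.23 (adjusted p 0.145). Cp shares 108 exon bases with Hps3 on the opposite strand; no source used here gives the strand setting of the counting.

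Slc11a1 encodes NRAMP1, a transporter that moves iron and other divalent metals out of the phagosome of macrophages and neutrophils (chromosome 1, 74375195 to 74386062, plus strand). It had the largest rise of the 10 at D15. At D15 it read 116, 107, 78.2 and 118 CPM in EAM hearts against 5.94, 7.21, 5.91 and 6.89 CPM in controls, and at D21 62.4, 29.9, 17 and 74 CPM against 6.87, 5.52, 6.79 and 9.32 CPM. The groups did not overlap at either day, and the log2 fold changes were 4.06 ± 0.15 (adjusted p 4.73e-08) and 2.72 ± 0.46 (adjusted p 0.00682), both induced. At D10 the EAM hearts read 67.4, 9.29, 17.8 and 9.61 CPM and the controls 5.42 to 12.8 CPM, so that 2 EAM hearts stood within the controls. The log2 fold change of 1.52 at D10, not called, fell to 0.43 without EAM heart 1.

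Slc39a14 encodes ZIP14, which imports iron not bound to transferrin, along with zinc and manganese (chromosome 14, 70303469 to 70351425, minus strand). It read 222, 252, 240.2 and 246 CPM in D15 EAM hearts and 94.5, 107, 112 and 133 CPM in controls, a log2 fold change of 1.14 ± 0.10 (adjusted p 1.01e-05, induced). At D21 it read 133, 124, 109 and 238 CPM against 87.7 to 109 CPM. Those groups met without overlapping, with EAM heart 3 at the level of the highest control, and the log2 fold change of 0.61 ± 0.25 was not called (adjusted p 0.0835); without EAM heart 4 it was 0.29.

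Tfrc encodes the transferrin receptor (chromosome 16, 32608920 to 32632794, plus strand) and carries the 4 hairpins in its 3′ UTR shown above. It was repressed at D15 and was the most uneven of the called genes. At D15 it read 61.0, 97.9, 62.3 and 80.8 CPM in EAM hearts against 199, 226, 84.5 and 177 CPM in controls, so control heart 3 stood inside the EAM range. The log2 fold change was -1.14 ± 0.28 (adjusted p 0.00456), and the call was lost in 6 of the 8 fits that left out 1 heart, where the values ran from -1.36 to -0.97, and in the fit of all 24 hearts (-1.18, adjusted p 0.0165). D10 and D21 gave -0.59 ± 0.45 and -0.87 ± 0.36, not called (adjusted p 0.483 and 0.0927).

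Fth1 (chromosome 19, 9980598 to 9985098, plus strand) and Ftl1 (chromosome 7, 45457944 to 45459884, minus strand) encode the heavy and light subunits of ferritin, and both carry the hairpin in the 5′ UTR. The heavy subunit has the ferroxidase activity, and the light subunit helps the iron core to form. Fth1 read 1792, 1887, 1544 and 1616 CPM in D15 EAM against 1216 to 1384 CPM in control hearts, and 1858, 1538, 1455 and 1695 CPM in D21 EAM against 1081 to 1328 CPM. The groups did not overlap at either day, yet the changes were small: 0.41 ± 0.11 (adjusted p 0.00732) and 0.45 ± 0.14 (adjusted p 0.0344) on the log2 scale, under the 2-fold limit and not called.

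Ftl1 moved further. It read 1029.6, 1107, 696 and 957 CPM in D15 EAM hearts against 295, 310.5, 355 and 318 CPM in controls, and 1075, 619, 503 and 867 CPM in D21 EAM hearts against 307, 328, 254 and 315 CPM. With log2 fold changes of 1.61 ± 0.15 (adjusted p 1.23e-05) and 1.37 ± 0.24 (adjusted p 0.00728) it was induced at both days, and the groups did not overlap. Ftl1 has near-identical copies elsewhere in the genome. It also shares 355 exon bases with Gm10252 on the opposite strand and 109 with the miRNA gene Gm22133 on the same strand. Part of its reads may therefore be assigned uncertainly.

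Hmox1 encodes heme oxygenase 1, which splits heme into iron, carbon monoxide and biliverdin (chromosome 8, 75093621 to 75100589, plus strand). It read 189, 276, 124 and 205 CPM in D15 EAM hearts against 13.9, 13.4, 18.2 and 16.9 CPM in controls, and 100.4, 55.3, 33.0 and 178 CPM in D21 EAM against 13.6, 16.2, 13.9 and 16 CPM. All EAM hearts were above all controls, by log2 fold changes of 3.71 ± 0.24 (adjusted p 1.24e-06) and 2.66 ± 0.48 (adjusted p 0.00798), both induced. Taking the replicate number as a block ended the D21 call (2.37, adjusted p 0.0125). At D10 the value was 1.12 ± 0.42, not called, and 0.60 without EAM heart 1.

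Blvrb encodes biliverdin reductase B, the main biliverdin reductase of the fetus and a flavin reductase in the adult (chromosome 7, 27447978 to 27466144, plus strand). It read 30.9, 31.6, 22.4 and 29.3 CPM in D15 EAM hearts against 12.3, 12.4, 9.84 and 11.4 CPM in controls, a log2 fold change of 1.36 ± 0.13 (adjusted p 1.29e-05, induced). It was also the only gene of the 10 beside Hamp whose groups did not overlap at D10, with 24.7, 12, 14.8 and 14 CPM against 10.4 to 11.8 CPM; 4.41% of all genes tested were higher without overlap at that day. At D21 EAM heart 3, with 11.7 CPM, stood among the controls (10.9 to 12.6 CPM), and the log2 fold change of 0.84 ± 0.25 was not called (adjusted p 0.0347).

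The order of the EAM hearts of 1 day was set beside their macrophage markers. D10 EAM heart 1 was the highest of its group for 7 of the 10 genes (Hamp, Slc11a1, Slc39a14, Ftl1, Hmox1, Blvrb and Cp) and had the highest summed level of the macrophage markers, 3083 CPM against 1005 to 1745 CPM in the other 3. D15 EAM heart 3 was the lowest for 5 genes (Slc11a1, Fth1, Ftl1, Hmox1 and Blvrb) and D21 EAM heart 3 for 7 (these 5 with Slc39a14 and Cp). Both also had the lowest macrophage marker sums of their groups, 3488 CPM at D15 and 1427 CPM at D21, where the other EAM hearts ranged from 2443 to 5195 CPM and the control hearts of those days from 509 to 828 CPM. The heart with the highest macrophage sum was the highest for 6 genes at D15 and for 4 at D21, where Slc11a1 and Hmox1 were highest in heart 4 and not in heart 1, and the heart with the lowest sum at D10 was the lowest for 3. Other cell types ordered these hearts too. Of the D10 EAM hearts, heart 1 was highest in neutrophil (889 CPM) and T cell (25.9 CPM) sums. It was lowest in the cardiomyocyte sum (19496 CPM). EAM heart 3 had the highest cardiomyocyte and lowest fibroblast sums at D15 (19960 and 3302 CPM) and D21 (34865 and 2433 CPM). It was not lowest in the neutrophil sum at either day. How many of all genes share these orders was not counted. The part of any cell type in the changes of these genes was not tested.

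The difference in EAM effect between days was tested for each gene in 1 fit of all 24 hearts. From D10 to D15 the effect rose for Slc11a1 (by 2.48 ± 0.72 on the log2 scale, adjusted p 0.00951), Ftl1 (1.04 ± 0.30, adjusted p 0.00886) and Hmox1 (2.54 ± 0.60, adjusted p 0.00327). It fell for Hamp (-3.10 ± 0.82, adjusted p 0.00560) and Slc40a1 (-1.07 ± 0.27, adjusted p 0.00453). These 5 of 10 stand beside 12.7% of all genes called for this difference, and both differences share the D15 hearts with the D15 comparison. With each of the 24 hearts left out in turn, 1 to 5 of the 10 were called, and over all genes 1165 to 3740 against 2077 with all hearts. Slc11a1 lost its call in 19 of the 24 fits, Ftl1 in 17, Hamp in 10, Slc40a1 in 6 and Hmox1 in 0, and Cp gained a call in 1. Without D10 EAM heart 1 the Slc11a1 difference rose to 3.58, with its call kept, and that of Hamp was -2.39, with its call lost. From D15 to D21 only Hamp was called (-6.00 ± 1.02, adjusted p 0.00115), beside 3.66% of all genes. With each of the 24 hearts left out in turn Hamp kept this call, and over all genes 240 to 1565 were called, against 597 with all hearts. Both Hamp differences lost their call with limma-voom (-2.69, adjusted p 0.0362, and -6.21, adjusted p 0.0155) and with the atrial score in the fit (-0.22, adjusted p 0.807, and -1.23, adjusted p 0.423), where no gene of the table was called for either difference. Slc11a1 (-1.33 ± 0.71, adjusted p 0.167) and Hmox1 (-1.05 ± 0.60, adjusted p 0.188) were lower at D21 than at D15 without passing the test.

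Ratios of a pair of genes within 1 heart do not depend on library scaling. The Fth1 to Ftl1 ratio, heavy to light subunit, was 1.74, 1.70, 2.22 and 1.69 in D15 EAM hearts and 4.12, 4.40, 3.70 and 4.35 in controls. At D21 it was 1.73, 2.48, 2.89 and 1.95 against 3.96, 4.04, 4.26 and 3.92, and at D10 1.92, 2.62, 3.37 and 3.47 against 3.19 to 4.22. The groups did not overlap at D15 and D21. An exact two-sided permutation test gave p = 0.0286 at both days, the smallest that 4 against 4 hearts allow, and 0.0514 after adjustment over 9 ratio tests, so no ratio could pass FDR 0.01 in this design. At D10 the exact permutation p was 0.114.

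The Slc39a14 to Tfrc ratio compared the transcript of an importer of unbound iron with that of the receptor for transferrin iron. At D15 it was 2.58 to 3.85 in EAM hearts against 0.476 to 1.32 in controls, a mean difference of 2.23 on the log2 scale (exact permutation p = 0.0286, adjusted 0.0514). At D21 the ranges were 0.684 to 3.90 and 0.348 to 0.873 and overlapped (exact permutation p = 0.0857). The Hmox1 to Slc40a1 ratio set the transcript of a heme breakdown enzyme against that of the iron exporter. It was 4.97 to 18.3 in D15 EAM against 0.360 to 0.485 in control hearts, and 1.61 to 9.96 against 0.320 to 0.548 at D21. These differences, 4.71 and 3.33 on the log2 scale, left no overlap (exact permutation p = 0.0286 at each day, adjusted 0.0514). At both days Hmox1 was above all controls and Slc40a1 below them in every EAM heart. The separation of the ratio and its p were thus fixed by the single genes and add no result of their own.

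**Figure D4:**
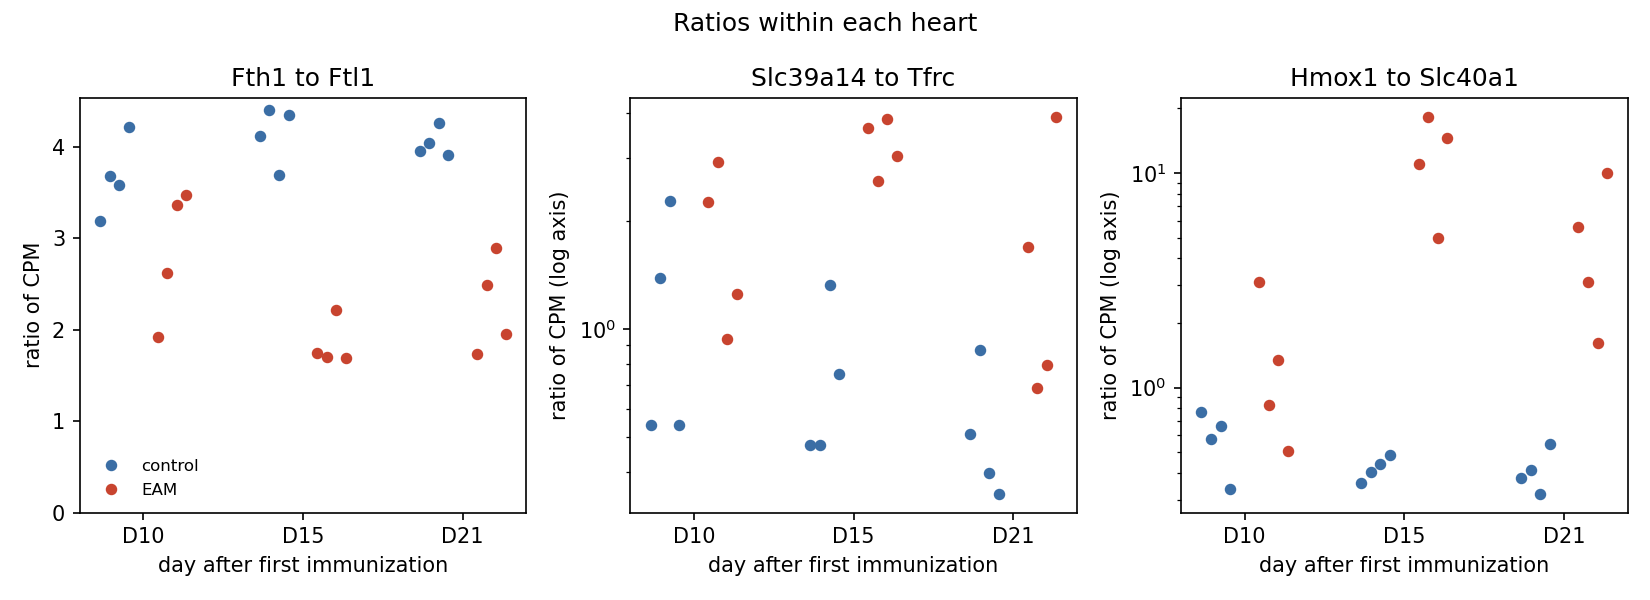
Ratio of CPM within each heart (vertical, log axis for the second and the third panel) by day after first immunization (horizontal) for 3 pairs of genes, with 1 point for each control (blue) or EAM (red) heart. EAM hearts lie below all controls for Fth1 to Ftl1 and above all controls for Hmox1 to Slc40a1 at D15 and D21.

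The same fits covered 67 other genes of iron and heme biology in 10 roles, of which 58, 61 and 59 could be tested at D10, D15 and D21. At D10 none was called. At D15, 17 of 61 were induced (27.9%) and 6 repressed (9.84%), beside 18.1% and 12.9% of all genes. At D21, 2 of 59 were induced (3.39%) and 0 repressed, beside 4.13% and 1.16% of all genes. Of the 17, 4 (Il6, Steap1, Hpx and Spic) passed the filter on low counts through EAM hearts alone, with at most 8 reads in any D15 control heart, so they had to be higher to be tested. The median log2 fold change was 0.06, 0.09 and 0.02 in turn.

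Import and reduction had the most induced genes, 7 of 13 at D15 with Steap1 among them; the roles hold too few genes to be set against the shares of all genes. Lcn2 encodes lipocalin 2, which withholds bacterial siderophores and their iron, and read 449.6 ± 77.4 CPM (SD, n = 4) in EAM hearts at D15 against 8.43 ± 4.38 CPM in controls. It was induced at D15 (log2 fold change 5.78, adjusted p 2.28e-06) and D21 (4.70, adjusted p 0.00609). Steap1, of a family with metalloreductases, read 8.53 ± 1.83 CPM in these EAM hearts against 0.0148 ± 0.0295 CPM in controls, where it had 0 or 1 read. Also induced were the transferrin gene Trf (log2 fold change 2.45), the lactoferrin gene Ltf (3.45), Steap2 (3.37), Steap4 (1.06) and the mitochondrial iron importer Slc25a37 (1.24). All 8 neutrophil markers were induced at D15, and the part of neutrophil content in Lcn2 and Ltf was not tested.

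Transport and scavenging of heme and hemoglobin had 4 of 8 genes induced and 1 repressed at D15. Hp encodes haptoglobin, the plasma protein that binds free hemoglobin, and rose from 8.69 ± 2.80 CPM in control to 490.4 ± 194 CPM in EAM hearts at D15 (log2 fold change 5.86, adjusted p 1.48e-06). It was still induced at D21 with 247 ± 202 CPM against 7.75 ± 2.57 CPM (5.04, adjusted p 0.00644). Neither Hp nor Lcn2 kept its D21 call with limma-voom, with the atrial score, or without any 1 control heart, EAM heart 1 or EAM heart 2. Hpx, for the heme-binding hemopexin, was induced at D15 at a far lower level, 1.69 ± 0.667 against 0.249 ± 0.151 CPM. Lrp1, the hemopexin receptor, and the heme exporter Flvcr1 were also induced (1.74 and 1.31), and Flvcr2 was repressed (-1.60).

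Systemic regulators had 3 of 7 tested genes induced and 1 repressed at D15. Il6, for interleukin-6, read 45.4 ± 18.6 CPM in EAM hearts against 0.231 ± 0.0818 CPM in controls, which is 804 to 1671 reads against 2 to 6. Inhbb, for the activin B subunit, read 27.4 ± 10.7 against 5.48 ± 1.03 CPM (log2 fold change 2.36, adjusted p 4.54e-05). Bmp2 was induced as well (1.47), and Hfe2, which encodes the BMP co-receptor hemojuvelin and is made in striated muscle, was repressed from 285 ± 13 to 74.3 ± 22.0 CPM (-1.90, adjusted p 1.69e-05). At D21, Il6 (4.84, adjusted p 0.0156), Inhbb (1.30, adjusted p 0.0462) and Hfe2 (-0.59, adjusted p 0.0779) were not called.

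Heme synthesis had 3 of 9 genes repressed and 0 induced at D15, namely Uros (-1.39), Alad (-1.20) and the last enzyme of the pathway, Fech (-1.05). Its median log2 fold change was -0.74, and that of the 6 iron-sulfur cluster assembly genes was -0.78, with Nfs1 repressed (-1.09). The cardiomyocyte markers moved the same way, with 5 of 8 repressed and a median of -1.36, and their part in these values was not tested. Among sensors of iron, Fbxl5, which marks the iron regulatory proteins for degradation, was induced at D15 from 79.2 ± 4.23 to 215 ± 38.5 CPM (1.48, adjusted p 5.39e-06), and the genes of the 2 iron regulatory proteins, Aco1 (0.09) and Ireb2 (0.12), were not called. Of 9 regulators of Hmox1 and targets of the oxidative response, 2 were induced at D15, Txnrd1 (1.02) and Spic, which had 3 to 5 reads in controls and 26 to 56 in EAM hearts. Of the other storage and chaperone genes and the other heme breakdown genes, none was called at any day.

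**Figure D5:**
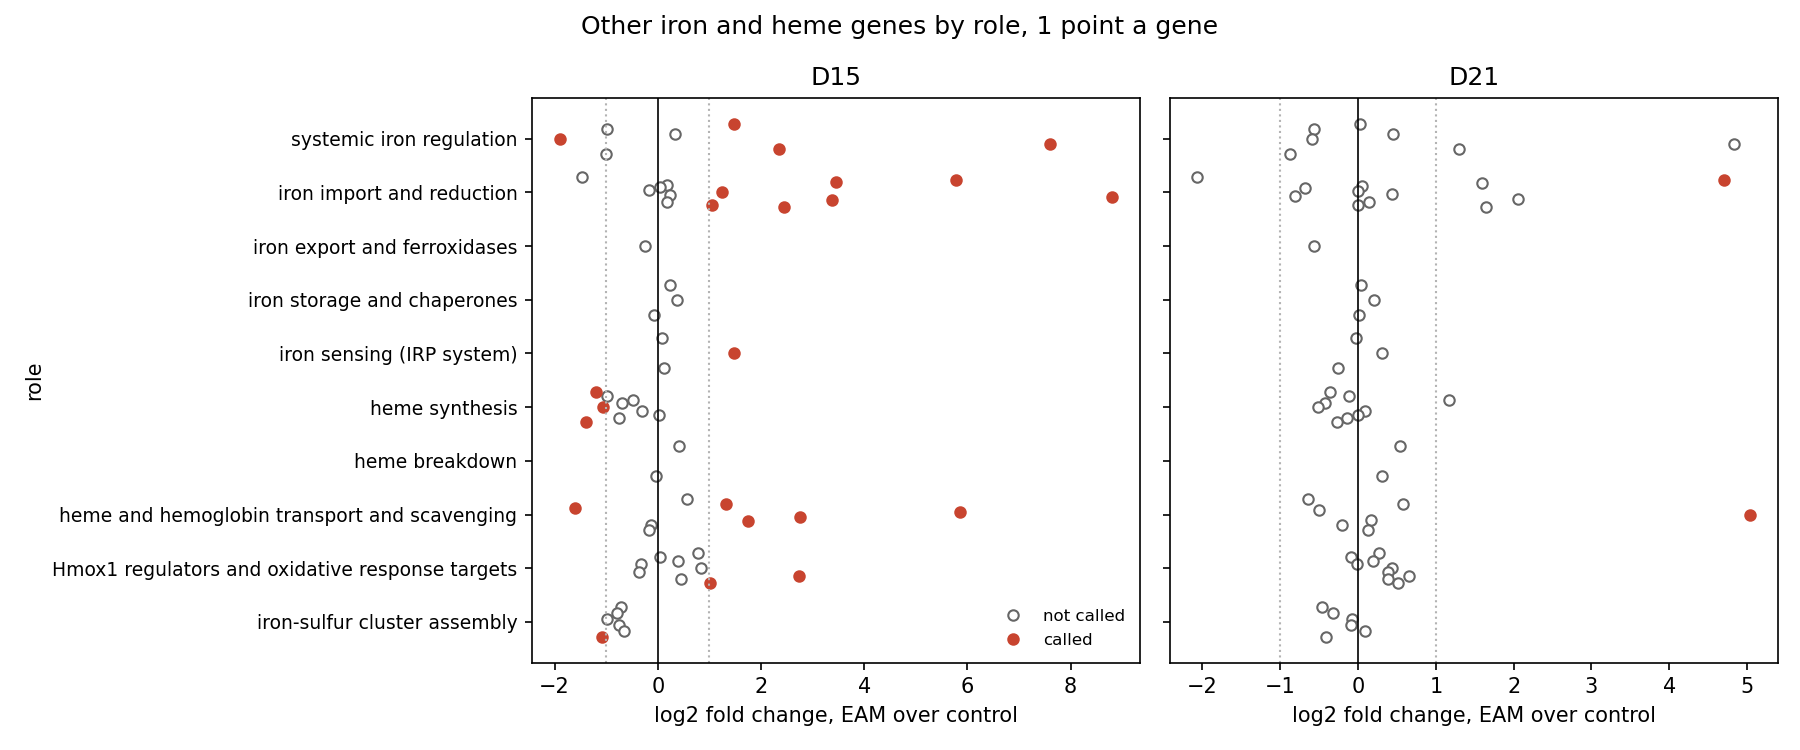
Log2 fold change of EAM over control (horizontal) for each tested gene of 10 iron and heme roles (vertical) at D15 and D21, with filled points for called genes and dotted lines at 2-fold. At D15, 17 genes are filled on the right and 6 on the left, and at D21 Lcn2 and Hp are the 2 filled genes.

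Erythroid markers were read because red blood cells hold most of the body's heme. The summed level of 10 erythroid markers lay between 37.5 and 180.5 CPM in EAM hearts at D15, beside 147 to 275 CPM in controls, and of the 7 tested, 0 were induced and 1 was repressed. At D21 the sums were 154 to 685 CPM and 112 to 297 CPM, and none was called.

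For each of the 10 genes, the 2 genes with the nearest profile over the 6 group means were found among 14050 genes, by the mean absolute difference of standardised log2(CPM + 1) values. Hmox1 lay nearest to Cd53 (0.0107), a leukocyte surface protein that averaged 218 CPM in EAM hearts at D15 and 14.1 CPM in their controls, and to Adam15 (0.0168). Slc11a1 lay nearest to Snx6 (0.0135) and Cysltr1 (0.0160), and Tfrc to Gulp1 (0.0274) and Arhgef10 (0.0286). Ftl1 lay nearest to the haptoglobin gene Hp (0.0399) and Aup1 (0.0418), and Blvrb to Dbnl (0.0342) and Ifi44 (0.0350). Cp lay nearest to the neutrophil surface gene Cd177 (0.0671) and Cebpb (0.0697), Slc39a14 to Susd6 (0.0498) and Ttf1 (0.0693), Slc40a1 to Dyrk1a (0.0590) and Zkscan3 (0.0607), and Fth1 to Gpr160 (0.0648) and Rbks (0.0658). Hamp had no near neighbour by this measure: its 2 closest, Naf1 (0.130) and Pwp1 (0.147), varied by far less than Hamp over the groups, from 14.1 to 16.5 CPM and from 26.2 to 28.0 CPM. With 6 means per gene, such likeness is a description.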

How the data were processed

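Libraries were poly(A) selected, strand-marking and paired-end. Per the labels and the study's methods, reads were aligned with HISAT2 2.0.4 to GRCm38, duplicates were removed with Picard and reads per Ensembl gene were counted with featureCounts. No source used here gives the strand setting of the counting. The authors deposited raw counts per gene, as a table and as single files that were identical. Removal of duplicates can compress very abundant transcripts such as Fth1. The 92 spike-in features held 0 reads. Depth was 15814863 to 24980864 counts per library, so that 3 counts correspond to 0.120 to 0.190 CPM.

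Groups came from the sample labels. Genes reaching 10 reads in 4 or more samples were tested with edgeR 4.0.16 (R 4.3.3; TMM, quasi-likelihood test, Benjamini-Hochberg adjustment over all genes tested) within each day, and in 1 fit of all 24 hearts for differences between days and between controls. Standard errors are the log2 fold change divided by the square root of F. Levels are CPM scaled by TMM over all hearts, and levels between genes were compared per kilobase of the longest CCDS transcript (GENCODE M21). The code was tested on simulated data. limma 3.58.1, DESeq2 1.42.0, other scalings, filters, thresholds and left-out hearts were alternatives. The members and lists were chosen with earlier results of these data known. The text names all 10 members, other iron and heme genes called at D10 or D21 and the 2 with the largest change per role at D15, and the 2 nearest profiles of each member. Steap4, Steap2, Trf, Ltf, Slc25a37, Lrp1, Flvcr1, Flvcr2, Bmp2, Hfe2, Fech, Aco1 and Ireb2 were named after their values were seen, as were the 5 atrial genes. No source says that same-numbered EAM and control hearts share a litter or batch. Their deviations from the group means correlated at 0.101, 0.171, 0.307 and 0.248 at D21, above 0.1 in every pair. The range was -0.093 to 0.407 at D10 and -0.105 to 0.043 at D15. The main fits took no pairing into account at any day, D21 included. A block for the replicate number was fitted as an alternative at each day, and at D21 it called 3 of the 10 genes. Nothing says which hearts were processed together, and p-values measure the spread between these hearts.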

Additional observations from a re-analysis of the deposited data

Results flagged for a closer look

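In 60 groups of 4 hearts, 1 for each of the 10 genes in each of the 6 groups, a heart stood far from the other 3 in 4, and chance alone sets about 1 in 20 apart. Hamp read 1.53 CPM in D15 control heart 4, against 14.2 to 15.9 CPM in the other 3, and this heart was also low in atrial transcripts. Slc11a1 read 67.4 CPM in D10 EAM heart 1, against 9.29 to 17.8 CPM, and this heart also had the highest macrophage marker sum of its group. Slc40a1 read 20.5 CPM in D21 EAM heart 3, against 17.8 to 17.9 CPM in the others, which is a gap of under 3 CPM in a very narrow group. Hmox1 read 12.9 CPM in D10 control heart 4, against 27.1 to 29.7 CPM.

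The EAM effect differed between days, by a test of the difference itself, in 6 cases. From D10 to D15 the log2 differences were -3.10 for Hamp, -1.07 for Slc40a1, 2.48 for Slc11a1, 1.04 for Ftl1 and 2.54 for Hmox1, and from D15 to D21 it was -6.00 for Hamp. With the atrial score in the fit, the Hamp differences were -0.22 ± 0.61 (adjusted p 0.807) and -1.23 ± 0.92 (adjusted p 0.423), and no gene of the table was called for either difference; the score does not overlap between groups at D10 or D21.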

How the results depend on the processing

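The D15 result was the steadiest: 8 of the 10 genes were called, and 6 to 9 under each alternative that kept all hearts, 6 (without Slc40a1 and Tfrc) when scaled by total counts, and 6 or 7 when 1 heart was left out. Over all genes, 2838 higher and 2019 lower became 3194 and 1554 with total counts and 5212 and 4888 with no fold limit. With 1 heart left out, 3998 to 4744 genes were called in all, against 4857 with all hearts. At D10 the likelihood ratio test and DESeq2 each called 1 of the 10 and 1 of the 67 other genes, and use of all 12 control hearts called 2 (Slc11a1 and Hmox1) and 4, while over all genes the calls went from 0 to 632 higher and 49 lower. At D21, where 4 of the 10 were called, limma-voom called 1 and the atrial covariate 0, and leaving out 1 heart gave 0 to 6. Of the other genes, the 2 induced at D21 became 6 at FDR under 0.05, 5 with the likelihood ratio test, 6 with DESeq2, 7 with all 12 controls, 8 in the fit of all 24 hearts, 0 with limma-voom or the atrial covariate, and 0 to 6 with 1 heart left out. The genes induced at D21 in the whole table moved alike, from 630 to 1420, 1356, 1364, 1580 and 1514 in the same order, 80 with limma-voom, 0 with the covariate and 0 to 1477 with 1 heart left out. The 0 repressed at D21 became 1 at FDR under 0.05, with the likelihood ratio test or with DESeq2, 2 in the fit of all 24 hearts, 3 with no fold limit, and 0 to 1 with 1 heart left out, while all genes repressed went from 177 to 438, 412, 369, 446 and 473 in the same settings. The 6 repressed at D15 became 17 with no fold limit and 10 in the fit of all 24 hearts, with or without the atrial covariate, and all genes repressed went from 2019 to 4888, 2320 and 2288. For the D15 minus D10 difference, 5 of 10 became 3 without a filter on low counts (776 higher and 1034 lower of 27304 genes, against 878 and 1199 of 16318), 0 with the atrial covariate and 1 to 5 with 1 heart left out. For D21 minus D15, 1 became 0 with limma-voom or the atrial covariate. Between D21 and D10 controls, Hamp was called (1 of 10) at FDR under 0.05, with the likelihood ratio test and with DESeq2. The atrial covariate was chosen after the data were seen; it does not overlap between groups at D10 or D21, which leaves little to fit at those days and in the differences between days, and for the other changes the cause was not tested. No member changed direction in a called comparison under any alternative.

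The replicate block left 0 members called at D10, 8 at D15 and 3 at D21, where Hmox1 was lost. It changed no other call of a member at a single day. Over all genes it called 1 higher and 0 lower at D10, and 2772 and 2008 at D15, against 2838 and 2019 in the main fit. At D21 it called 601 and 137, against 630 and 177. For the ratios, sign flips of 4 same-numbered pairs cannot reach the threshold. With 1 heart left out, the D10 difference of Hmox1 to Slc40a1 ran from 0.56 without EAM heart 1 to 1.43 without EAM heart 4 on the log2 scale, and only the latter had an adjusted exact permutation p under 0.05; no other ratio at D10 did. Depth limits Hamp at D21, where EAM hearts held 1 to 6 reads, and with 4 hearts a group, single hearts move the values of D10 and D21, EAM heart 1 at D10 and EAM hearts 3 and 4 at D21 among them.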
